A study of Mus musculus with 38 samples.

Results

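The 7 mouse genes Pcx, Pcca, Pccb, Mccc1, Mccc2, Acaca and Acacb encode the biotin-dependent carboxylases. They were chosen by name, for what their products are, among the 22443 genes with a coding transcript in the deposited counts. Earlier results of these data were known at that point, so the calls and ranks below do not test a set fixed beforehand. The products of Pcx, Pcca, Mccc1, Acaca and Acacb carry biotin, and those of Pccb and Mccc2 are partner subunits without it. For each gene, ribosome footprints in the coding sequence (CDS) of the longest transcript were compared between a streptavidin pulldown and the input with the same number in all 19 such pairs of libraries. The question was how far, and over which stretch of the CDS, these footprints were recovered with streptavidin.

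Footprints, the mRNA fragments that ribosomes shield from nuclease, were sequenced from primary cortical neurons of CD-1 mouse embryos. The neurons carried a doxycycline-inducible lentivirus for the biotin ligase TurboID, either as PSD95-TurboID, which the palmitoylation signal and untranslated regions of PSD95 direct to dendrites, or as Pan-TurboID, which has no localization signal. In the KCl experiment, neurons with either ligase were at rest or depolarized with 55 mM KCl for 1 h, with 3 pairs in each of these 4 conditions. In the DHPG experiment, neurons with PSD95-TurboID received 100 µM DHPG, an agonist of metabotropic glutamate receptors, for 10 min (3 pairs). In the knockdown (KD) experiment, neurons with PSD95-TurboID had 20 nM siRNA against Eif4g2, a translation initiation factor, for 72 h and were then at rest or depolarized with KCl (2 pairs each). Per the labels, all neurons were given biotin for 30 min and cycloheximide, which stops elongation, for 2 min, and stimulated neurons were first silenced with tetrodotoxin and DL-AP5 for 2 h. The paper's methods instead give 20 min of biotinylation after DHPG, and they place cycloheximide before biotin. Control siRNA libraries were not analysed here, and neither were pulldowns from neurons without TurboID. Recovery through the biotin that cells attach to carboxylases and recovery through labelling by TurboID therefore cannot be told apart.

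Carboxylases use biotin as a swinging arm that carries activated carbon dioxide from the active site that loads it to the one that spends it. Holocarboxylase synthetase (encoded by Hlcs) joins biotin to a lysine between a pair of methionines in the biotin carrier domain of the protein. Streptavidin binds biotin whichever ligase attached it, so endogenous carboxylases are well known as background bands in streptavidin blots of mammalian cells. Pyruvate carboxylase (Pcx), propionyl-CoA carboxylase (Pcca and Pccb) and methylcrotonyl-CoA carboxylase (Mccc1 and Mccc2) work in mitochondria, whereas acetyl-CoA carboxylase 1 (Acaca) makes malonyl-CoA for fatty acid synthesis in the cytosol and acetyl-CoA carboxylase 2 (Acacb) makes it at the outer mitochondrial membrane.

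The sequences below show where along each mRNA the biotin-accepting lysine is encoded, which decides how much of the CDS is translated after that residue has been made. Each is a 27-base window of the mm10 (GRCm38) coding sequence, 5′ to 3′ on the coding strand, with the codons of the tetrapeptide Ala or Val, Met, Lys, Met in capitals. The windows of Mccc1, Acaca and Acacb cross exon junctions and are given as spliced. The position is that of the lysine codon.
Pcx, codon 1145 of 1179, chr19:4621181-4621183, plus strand: ctcagcGCCATGAAGATGgagactgtg
Pcca, codon 690 of 724, chr14:122887086-122887088, plus strand: attgaaGCTATGAAAATGcagaacagt
Mccc1 (full-length transcript), codon 677 of 717, chr3:35960939-35960941, minus strand: atgattGCCATGAAGATGgagcatacc
Acaca, codon 785 of 2345, chr11:84260630-84260632, plus strand: attgagGTAATGAAGATGgtgatgact
Acacb, codon 919 of 2448, chr5:114207242-114207244, plus strand: atggagGTGATGAAGATGatcatgacc
In Pcx, Pcca and Mccc1 the lysine lies 34, 34 and 40 codons before the end of the CDS, at 97.1%, 95.3% and 94.4% of its length. In Acaca and Acacb it lies at 33.5% and 37.5%, with 1560 and 1529 codons still to be translated. The motif, searched in frame on the coding strand, was found once in each of these coding sequences and was not found in those of Pccb and Mccc2. The coding sequence of the longest transcript was read from the genome for 22361 genes, and 65 held the motif (0.291%), 4 members among them. This is a match of letters and no evidence of biotin, and other transcripts of a gene were not read for this share. The longest Mccc1 transcript has a short CDS of 255 codons that ends before the lysine, so values for the full-length Mccc1 transcript, which held more counts, are given beside it.

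The 38 libraries held between 5906281 and 35643247 counts each, and between 2047169 and 14636018 of these fell in the CDS of the longest transcripts. Eif4g2 footprints lay between 269.8 and 323.5 CPM (counts scaled to the CDS total of the library) in the KD inputs and between 441.3 and 754.9 CPM in the KCl inputs. Footprints of Dlg4, the gene of PSD95, which can include those of the PSD95-TurboID transcript, were far higher in pulldowns than inputs with PSD95-TurboID (1703 to 2448 against 113.5 to 129.2 CPM in the KD experiment) and not with Pan-TurboID. Summed neuronal markers had a median of 7469 CPM in inputs and 6958 CPM in pulldowns, astrocyte markers 633.0 and 853.2 CPM, oligodendrocyte lineage markers 205.2 and 116.5 CPM, and microglial markers 2.85 and 2.88 CPM. In these bulk samples fewer cells of a type and less RNA per cell cannot be told apart, and the part of other cell types in the results below was not tested. Libraries with the same group differed by more than counting noise in every case, but by very unlike amounts. Chi-square per gene between such libraries was 1.48 to 1.90 in the DHPG inputs and 2.83 to 8.88 in the DHPG pulldowns. It was 2.81 to 4.65 in the KD experiment and 8.61 to 47.5 in the KCl experiment. The study's methods call the replicates of this assay biological. The labels do not say whether these replicates came from separate cultures, and p-values measure the spread between these libraries. Small p-values with DHPG and Eif4g2 siRNA thus rest on a smaller spread than in most KCl groups.

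Per length of CDS, the partner subunit Pccb had the most input footprints, with a median of 54.4 CPM per kb over 19 inputs. Mccc2 followed with 23.0, Pcx with 17.5, Pcca with 14.3, Acaca with 10.6 and Mccc1 with 8.84 CPM per kb, or 6.55 for its full-length transcript. Acacb was the lowest at 0.0653 CPM per kb. The lowest Pccb input, at 39.3 CPM per kb, was above the highest Mccc2 input, at 33.8, and the Acacb maximum of 0.316 lay below the minimum of every other member. The other neighbours in this order overlapped over the inputs, as for Pcx (14.4 to 24.6) and Pcca (7.74 to 25.1 CPM per kb). Over all 19 pulldowns Acaca had a median of 65.5 CPM per kb, Pccb 77.6 and Pcx 38.4, with Pcca at 32.3, Mccc2 at 32.2, Mccc1 at 8.15 and Acacb at 0.492 CPM per kb. By experiment, Acaca was below Pccb in the pulldowns of the KCl experiment (medians of 41.0 and 70.7 CPM per kb) and above it with DHPG (141.2 and 105.9) and Eif4g2 siRNA (132.4 and 87.1). In the inputs it was above Pcx with DHPG (19.6 and 15.3) and below it in the KCl experiment (9.66 and 17.4) and with Eif4g2 siRNA (17.0 and 21.6).

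Acaca footprints were higher in every pulldown than in its input. In resting neurons with PSD95-TurboID, Acaca had 75.9, 49.6 and 67.7 CPM in inputs 1 to 3 and 796.7, 227.8 and 388.6 CPM in the pulldowns of the same numbers. In depolarized neurons with this ligase the inputs had 68.3, 42.2 and 56.8 CPM and the pulldowns 461.2, 141.1 and 384.6 CPM. With Pan-TurboID the resting inputs had 74.3, 65.4 and 73.3 CPM and the pulldowns 487.1, 183.8 and 210.6 CPM. Pulldown 2 was the lowest in each of these sets of 3, and all pulldowns lay above all inputs. Depolarized neurons with Pan-TurboID had 98.6, 68.5 and 59.2 CPM in the inputs and 349.5, 140.2 and 210.4 CPM in the pulldowns. In the DHPG experiment the inputs had 124.7, 138.2 and 138.0 CPM and the pulldowns 1061, 993.6 and 846.2 CPM. In the KD experiment the inputs had 135.7 and 144.7 CPM at rest and 103.6 and 100.1 CPM after KCl, against 1141 and 1089 CPM and 576.7 and 774.1 CPM in the pulldowns. Within each of the 3 experiments the Acaca pulldowns and inputs did not overlap. The share of all genes without such overlap was not counted.

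**Figure D1:**
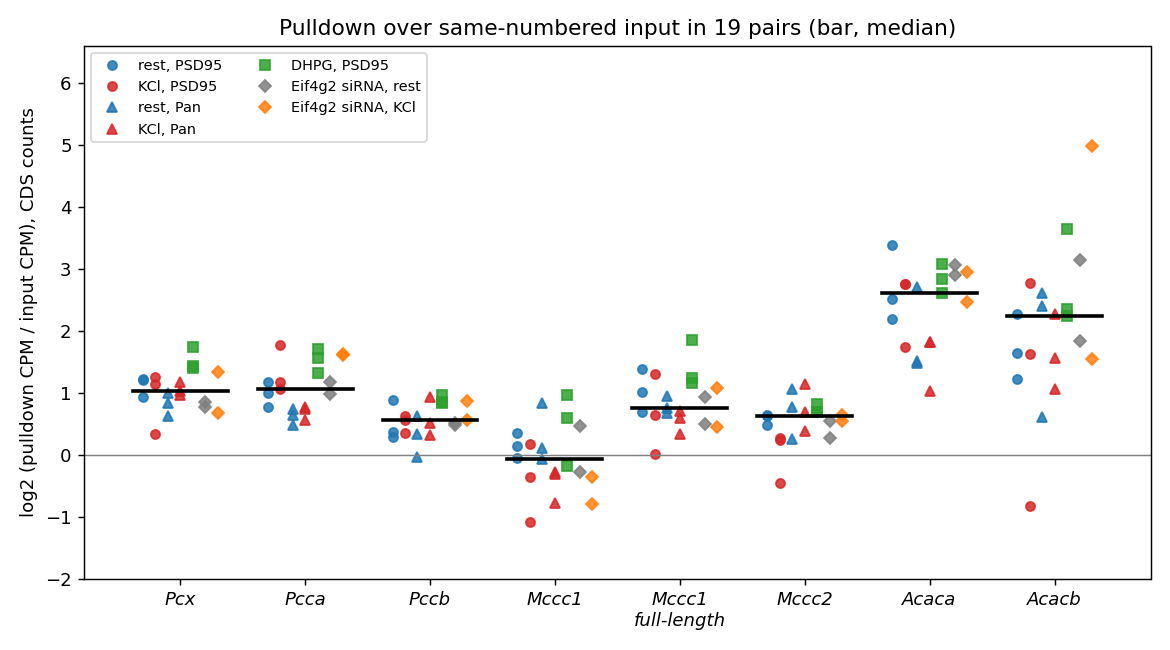
Log2 ratio of pulldown CPM to input CPM (y axis) for each carboxylase gene (x axis) in 19 pairs, coloured and shaped by condition, with a bar at the median over pairs. All Acaca points lie above 1, Pcx and Pcca points lie above 0, and the points for the short Mccc1 transcript scatter around 0 while those for its full-length transcript do not fall below 0.

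Pulldown over input for Acaca was 6.13-fold at the median over the 19 pairs, from 2.05-fold to 10.5-fold, and it was above that of Pcx, Pcca, Pccb, Mccc1 and Mccc2 in 19 of 19 pairs. Across the 8293 genes with at least 10 counts in every library, the median log2 ratio over pairs was 0.11 for all genes and 2.61 for Acaca, which ranked 2 behind Dlg4 (3.29) and ahead of Stxbp2 (1.90), Eml5 (1.80) and Chd6 (1.78). By fitted log2 fold change over all genes tested, low counts included, Acaca ranked 31 of 13003 in the KCl experiment, 15 of 12257 with DHPG, and 34 and 68 of 12223 with Eif4g2 siRNA at rest and after KCl. In the single conditions of the KCl experiment it ranked 33 at rest and 55 after KCl with PSD95-TurboID, and 74 and 185 with Pan-TurboID. Of the 8293 genes 19.1% were higher in the pulldown in all 19 pairs, as Acaca was. Of the carboxylases in this set, Pcca ranked 506, Pcx 557, Mccc2 1889 and Pccb 2165.

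Pcx and Pcca, which encode the other 2 biotin carriers with ample footprints, were each higher in the pulldown in 19 of 19 pairs, but by less. Pcx had 50.8 to 87.1 CPM in the inputs (median 61.9) and 67.1 to 191.2 CPM in the pulldowns (median 136.1), a median of 2.05-fold with a range from 1.26-fold to 3.35-fold. Pcca had 16.8 to 54.5 CPM in the inputs (median 31.0) and 34.5 to 129.3 CPM in the pulldowns (median 70.2), a median of 2.10-fold with a range from 1.39-fold to 3.43-fold. Their pulldowns and inputs overlapped in the KCl experiment and did not in the DHPG and KD experiments. The same held for the partner subunits Pccb and Mccc2, and the share of all genes without overlap was not counted.

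The partner subunits without biotin were also recovered, at the median over pairs by a smaller factor than Pcx and Pcca. This did not hold in every condition. In the fits below, with Pan-TurboID, Mccc2 was at a log2 value of 0.62 at rest and 0.73 after KCl, against 0.55 and 0.68 for Pcca. The difference between genes was not tested. Pcx and Pcca also have longer coding sequences, of 3540 and 2175 bases, than Pccb (1626) and Mccc2 (1692). Values with the trend on CDS length removed are given below. Pccb was higher in 18 of 19 pairs, with a median of 1.47-fold (0.971 to 1.96), and Mccc2 in 18 of 19, with a median of 1.54-fold (0.723 to 2.23). The exceptions were pair 2 of resting neurons with Pan-TurboID for Pccb and pair 2 of depolarized neurons with PSD95-TurboID for Mccc2. Mccc1 depended on the transcript that was counted. Its longest transcript was higher in 8 of 19 pairs with a median log2 ratio of -0.07, whereas its full-length transcript was higher in 19 of 19 with a median of 0.75 and a lowest value of 0.0078.

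Acacb had the fewest counts of the 7 genes. It had 69 CDS counts over all 19 inputs, with 3 inputs at 0, and 360 counts over all 19 pulldowns. Per library, the inputs held 0 to 12 counts and the pulldowns 3 to 57. The ratio was higher in the pulldown in 18 of 19 pairs with a median log2 value of 2.24, and it was above that of Acaca in 7 pairs and below it in 12.

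Each condition was then tested in a fit across all genes with edgeR's quasi-likelihood test and Benjamini-Hochberg adjustment. Over the 4 conditions of the KCl experiment together, 6 of the 7 genes passed as higher in the pulldown, beside 26.2% of 13003 genes tested. Acaca was 2.23 ± 0.23 (log2 fold change ± SE; adjusted p = 4.87e-07) and Acacb 2.15 ± 0.55 (0.00173). Pcx was 0.95 ± 0.11 (2.93e-07) and Pcca 0.87 ± 0.15 (2.48e-05), while Mccc2 was 0.46 ± 0.12 (0.00173) and Pccb 0.45 ± 0.12 (0.00220). The short Mccc1 transcript was -0.11 ± 0.20 (0.649) and the full-length one 0.80 (5.26e-05). Without replicate 3, Pccb missed the threshold at 0.39 (0.0733). The median log2 fold change over the 7 genes was 0.87, against -0.03 over all genes tested.

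In the DHPG experiment the same 6 genes passed as higher, beside 40.5% of 12257 genes tested. Acaca was 2.81 ± 0.09 (4.54e-14) and Acacb 3.32 ± 0.48 (4.28e-06). Pcca was 2.82-fold and Pcx 2.80-fold higher (SE 0.10 and 0.08 on the log2 scale), and the partner subunits Pccb and Mccc2 were 0.85 ± 0.07 and 0.69 ± 0.08. Mccc1 was 0.41 ± 0.25 (0.144) from its short transcript and 1.44 ± 0.15 (8.92e-08) from the full-length one. The short transcript passed without replicate 3 (0.74, 0.0228) and with the trend on CDS length removed (1.02, 0.00165), and was at 0.16 to 0.74 without 1 replicate. The Acaca inputs of this experiment were above all those of the KCl experiment, as were those of the KD experiment. In the DHPG inputs summed astrocyte markers were at 239.2 ± 6.30 CPM and oligodendrocyte lineage markers at 65.2 ± 3.98 CPM (SD, n = 3), against group means of 615.9 to 843.4 and 186.5 to 388.2 CPM in the KCl inputs, and neuronal markers at 10039 ± 78.6 against 6672 to 8066 CPM. In the KD inputs at rest and after KCl the astrocyte markers had group means of 620.5 and 782.6 CPM and the oligodendrocyte lineage markers 182.8 and 193.3 CPM (n = 2 each). Neuronal markers were at 8472 and 6702 CPM there. Microglial markers were at 12.5 and 19.4 CPM, against group means of 1.89 to 3.12 CPM in the KCl inputs. Their part in the level was not tested, and treatment, culture and library cannot be told apart.

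With Eif4g2 siRNA, Acaca was 3.01 ± 0.11 at rest (7.88e-17) and 2.72 ± 0.12 after KCl (4.25e-15). At rest 5 of the 7 genes passed as higher, beside 22.1% of 12223 genes tested, and after KCl 6 did, beside 24.0%. Pcca was 1.11 ± 0.18 and 1.62 ± 0.19, Pcx 0.83 ± 0.15 and 1.03 ± 0.15, and Pccb 0.51 ± 0.13 and 0.72 ± 0.14 in these conditions. Mccc2 was 0.42 ± 0.19 at rest (0.0763) and 0.57 ± 0.20 after KCl (0.0229). The short Mccc1 transcript did not pass in either, and the full-length one was 0.80 ± 0.28 (0.0213) and 0.82 ± 0.30 (0.0263). Acacb was 3.43 ± 1.08 and 3.73 ± 1.19 from 5 and 3 input counts in all, and leaving out 1 pair moved these values to between 2.47 and 4.00 at rest and between 1.85 and 8.46 after KCl. With only 2 pairs in a condition, leaving out either resting pair took the resting call from Pccb (0.0636 without replicate 1 and 0.0902 without replicate 2) and from Acacb (0.393 and 0.0763). Leaving out either KCl pair took it from Mccc2 (0.0686 and 0.0837), and leaving out KCl pair 2 took it from Acacb (0.384).

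The 4 conditions of the KCl experiment were also taken singly. Acaca passed in each, at 2.80 ± 0.48 at rest and 2.53 ± 0.48 after KCl with PSD95-TurboID (0.0030 and 0.00576), and at 1.97 ± 0.46 and 1.62 ± 0.46 with Pan-TurboID (0.0211 and 0.0393). Pcx passed in each as well, between 0.74 and 1.06, and Pcca passed with PSD95-TurboID, at 0.94 ± 0.30 and 1.30 ± 0.30. Thus 3, 3, 2 and 2 of the 7 genes passed as higher, beside 11.5%, 8.21%, 4.52% and 5.13% of all genes. Pulldown and input of a pair came from 1 lysate, so each pair was also taken as a block, below called the replicate block. With PSD95-TurboID, Pccb (0.0270) and Mccc2 (0.0428) then also passed at rest, and Pccb after KCl (0.0174). With Pan-TurboID, Pcca (0.0204) and Mccc2 (0.0196) then passed at rest, and Pcca, Pccb and Mccc2 after KCl (0.00397, 0.00656 and 0.00852). The block called 19.3%, 17.2%, 15.4% and 16.3% of all genes higher in these conditions. Mccc2 after KCl with Pan-TurboID, at 0.0516 without the block, also passed with RLE size factors (0.0499), the likelihood ratio test (0.0354), DESeq2 (0.0245) and the highest-count transcript (0.0486), and at rest it passed with DESeq2 for Pan-TurboID (0.0468) and against the mean of both inputs for PSD95-TurboID (0.0496), as Acacb did there (0.0490). The full-length Mccc1 transcript passed at rest with PSD95-TurboID, at 1.12 ± 0.29 (0.00942). Without replicate 3 the adjusted p of Acaca was 0.143, 0.193, 0.269 and 0.256 in the 4 conditions, without replicate 2 it was 0.122 and 0.0764 with Pan-TurboID, and its log2 fold change stayed between 1.43 and 3.04. With no filter on low counts it missed in depolarized neurons with Pan-TurboID (0.0700). The Pcx and Pcca calls in these conditions were also lost without replicate 3, with adjusted p between 0.147 and 0.329, and Pcca missed without replicate 1 (0.0669 at rest and 0.0849 after KCl). Nearly all calls were lost without replicate 3, with 0, 3, 0 and 0 of 13197 genes called in the 4 conditions. Without replicate 2, 0 of 12800 genes were called in either state with Pan-TurboID. Pcx missed without replicate 1 after KCl with PSD95-TurboID (0.0646) and at rest with Pan-TurboID (0.0806), and without replicate 2 at rest and after KCl with Pan-TurboID (0.139 and 0.0764).

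**Figure D2:**
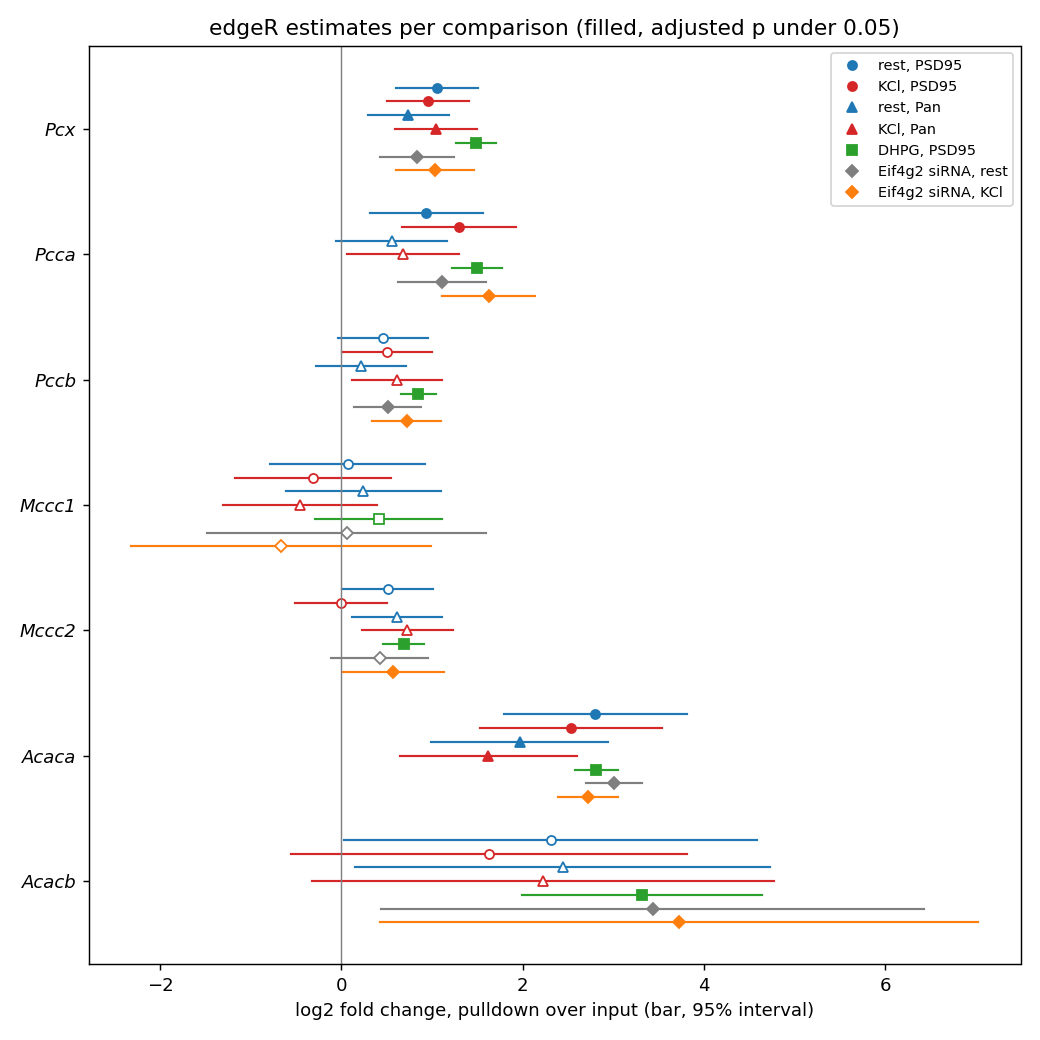
Log2 fold change of pulldown over input (x axis) with its 95% interval for each gene (y axis) in the 7 single conditions, from edgeR's fits across all genes, with filled symbols where the adjusted p was under 0.05. Acaca estimates lie between 1.62 and 3.01, Pcx and Pcca estimates between 0.55 and 1.62, and the intervals of Acacb are the widest.

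Acaca has a CDS of 7038 bases, and pulldown over input had a trend on CDS length across genes. With this trend removed, Acaca stood at 1.63 in the KCl experiment, 1.79 with DHPG, and 2.11 and 1.78 with Eif4g2 siRNA at rest and after KCl. It passed the threshold in each of these. Of the single conditions of the KCl experiment it missed it in depolarized neurons with Pan-TurboID, at 1.04 (0.110). Pcx then missed in depolarized neurons with PSD95-TurboID (0.49, 0.105), at rest with Pan-TurboID (0.42, 0.177) and at rest with Eif4g2 siRNA (0.30, 0.120), and Pcca at rest with PSD95-TurboID (0.70, 0.0783). With Eif4g2 siRNA, Acacb missed at rest (0.0739) and after KCl (0.0759), and Mccc2 after KCl (0.128). The partner subunit Pccb then stood above Pcx with Eif4g2 siRNA, at 0.43 against 0.30 at rest and 0.58 against 0.42 after KCl. It stayed below Pcx over the KCl experiment (0.34 against 0.55) and with DHPG (0.64 against 0.79).

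The ligases were compared through the difference in enrichment, PSD95-TurboID minus Pan-TurboID, over resting and depolarized neurons. None of the 7 genes passed, beside 0.00769% of 13003 genes, which is 1 gene, Dlg4, at 4.17 ± 0.64 (0.0415), while 169 genes had an unadjusted p under 0.05. Acaca was 0.87 higher with PSD95-TurboID, with a 95% interval from -0.08 to 1.83, and Pcca 0.50 higher, from -0.12 to 1.12. With the replicate block Acaca was 0.84 ± 0.27 (interval from 0.23 to 1.45, adjusted p = 0.894) and Pcca 0.49 ± 0.18 (0.08 to 0.90, adjusted p = 0.927). Both were higher with PSD95-TurboID in 6 of 6 comparisons of pairs with the same state and number. Under the block 669 of 13003 genes had an unadjusted p under 0.05 and 2 were called. How many of all genes were higher in 6 of 6 was not counted. Without the block Mccc2 was lower with PSD95-TurboID, at -0.42 with an interval from -0.92 to 0.08, and Pcx differed by 0.12, from -0.33 to 0.56.

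Depolarization was tested in the inputs, where it asks for the footprint level in whole neurons. None of the 7 genes passed, beside 15.4% of 13003 genes called in either direction. Pccb came closest, at 71.7 ± 8.7 and 72.7 ± 10.5 CPM at rest and 100.9 ± 21.9 and 101.3 ± 9.2 CPM after KCl (SD, n = 3 each, PSD95-TurboID and Pan-TurboID), a log2 change of 0.45 ± 0.17 (0.0640). It passed with DESeq2 (0.0363), with the CDS length trend removed (0.0170), from the transcript with the highest count (0.0479) and without replicate 2 (0.0292). Acaca was -0.10 ± 0.32 and Pcx -0.09 ± 0.15. The effect of KCl on pulldown over input passed for 0% of genes in edgeR, with 262 genes at an unadjusted p under 0.05. DESeq2 also called 0 genes, with 316 at an unadjusted p under 0.05. For Acaca the effect in edgeR was -0.31, with a 95% interval from -1.26 to 0.64.

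Within the Acaca CDS, the recovery was uneven. It was followed in windows of 100 codons, with each CDS segment counted whole in the window of its midpoint, so window labels are approximate. The window labelled 801 to 900 held the segments of codons 783 to 876, with the lysine codon. The one labelled 901 to 1000 held those of codons 877 to 1003. Windows labelled 1 to 200 lay below the input level, and most from there to 900 lay above it. The windows labelled from 901 on were higher still. The log2 ratios are relative to the total CDS count of each group. In the KCl experiment Acaca lay at -0.99 in window 1 to 100, 1.86 in 401 to 500 and 0.83 in 701 to 800. It lay at 1.39 in window 801 to 900 and at 2.80 in window 901 to 1000. With DHPG these windows were at -1.76, 1.62, 0.25, 1.29 and 4.08, and with Eif4g2 siRNA at -1.22, 1.29, -0.49, 0.86 and 5.21. In the 15 windows from codon 901 on, Acaca was above the 95th percentile of the other genes with at least 1000 codons in 15 windows in the KCl experiment, 15 with DHPG and 10 with Eif4g2 siRNA. In the 9 windows before, it was above it in 1, 0 and 0.

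**Figure D3:**
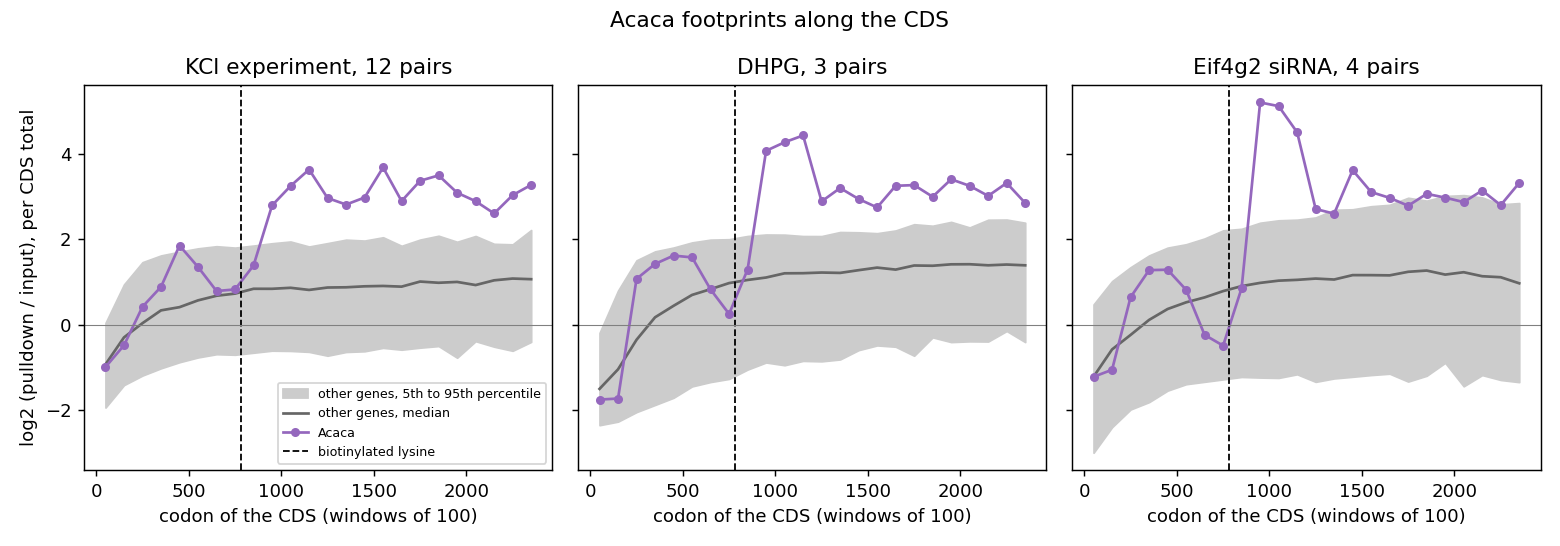
Log2 ratio of pulldown to input (y axis) in windows of 100 codons along the CDS (x axis) for Acaca (line with points) and for other genes with at least 1000 codons (grey line, median; grey band, 5th to 95th percentile), in the KCl, DHPG and KD experiments; the dashed line marks the lysine codon. Each CDS segment is counted whole in the window of its midpoint, so the window labelled 801 to 900 holds codons 783 to 876, with the lysine codon. In the 9 windows labelled up to 900 Acaca is above the band in 1 window in the KCl experiment and in 0 in the others. It is above the band in the window labelled from 901 in each panel.

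Other genes also had fewer pulldown footprints at the start of the CDS and more further in, so the Acaca step was set against all genes divided at the same codon. In Acaca, footprints before the segment of codon 785 had a fitted log2 ratio of -0.18 in the KCl experiment and those after it 2.71. The difference of 2.89 (adjusted p = 6.33e-05, edgeR's diffSpliceDGE) ranked 9 of 1973 genes divided there, of which 41.7% were called higher after the codon and whose median difference was 0.78 and 95th percentile 1.90. With DHPG the difference was 3.30 (1.31e-09), ranking 28 of 1870, beside 71.4% called and a median of 1.03. With Eif4g2 siRNA it was 3.96 (5.65e-10), ranking 23 of 1855, beside 49.7% called and a median of 1.00. The 95th percentile was 2.62 with DHPG and 2.85 with Eif4g2 siRNA. The difference passed without any 1 replicate or pair, but its rank moved. In the KCl experiment it ranked 27, 18 and 40 without replicate 1, 2 and 3, with 423 of 2045 genes called higher without replicate 3, and 14 with the replicate block. With DHPG it ranked 51 without replicate 3, and with Eif4g2 siRNA 41 without resting pair 2 and 71 and 50 without depolarized pair 1 and 2. With Eif4g2 siRNA 587 of 1912 and 607 of 1941 genes were called higher without resting pair 1 and 2.

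The depletion at the start of coding sequences enters the side before the site. With codons up to 200 left out of that side for all genes, an alternative chosen after seeing the data, the Acaca difference was 2.10 in the KCl experiment and no longer passed (0.0865), where 243 of 1813 genes were called higher. It was 2.43 with DHPG (4.80e-05), where 669 of 1746 genes were called higher, and 3.16 with Eif4g2 siRNA (0.000184), where 371 of 1717 were. Its ranks were 16, 53 and 17. Acacb had too few counts for this test: its segments held 7 input counts before and 61 after the lysine, and 34 and 325 pulldown counts. In the last 3 segments, from codon 2305 on, lay 48 of these input counts and 65 of the pulldown counts.

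Per library, the ratio of Acaca footprints after the site to those before it was 0.227 to 1.29 in the 19 inputs (median 0.868) and 2.55 to 14.2 in the 19 pulldowns (median 7.75), with no overlap. In counts, the inputs held 5651 before and 4544 after, and the pulldowns 6925 and 51525. The log2 ratio was higher in the pulldown in 19 of 19 pairs, by 3.12 ± 0.75 (SD, n = 19), with p = 1e-05 in a two-sided sign-flip permutation test, the smallest that 100000 resamples can give. Within the KCl experiment it was 2.78 ± 0.71 (12 of 12 pairs, exact permutation p = 0.000488), with DHPG 3.29 ± 0.13 (3 of 3, exact p = 0.25, the smallest possible) and with Eif4g2 siRNA 3.99 ± 0.21 (4 of 4, exact p = 0.125, the smallest possible). These tests are against 0. Over all genes divided at this codon, the median fitted difference was 0.78 in the KCl experiment, 1.03 with DHPG and 1.00 with Eif4g2 siRNA. Values above 0 are thus common, and how many genes were higher in all 19 pairs or did not overlap was not counted. The tests also take pairs as independent, but per the methods resting and activated samples of 1 replicate were handled together. The p-values over 19, 12 and 4 pairs may thus be too small. With same-numbered pairs of an experiment averaged first, an alternative chosen after seeing the data, the exact permutation p was 0.00781 over 8 averages (3.27 ± 0.54, SD), 0.25 over the 3 of the KCl experiment (2.78 ± 0.37) and 0.5 over the 2 with Eif4g2 siRNA, each the smallest possible. The lowest difference, 1.60, was in pair 3 of resting neurons with Pan-TurboID, and the highest, 4.30, in pair 2 of depolarized neurons with Eif4g2 siRNA.

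**Figure D4:**
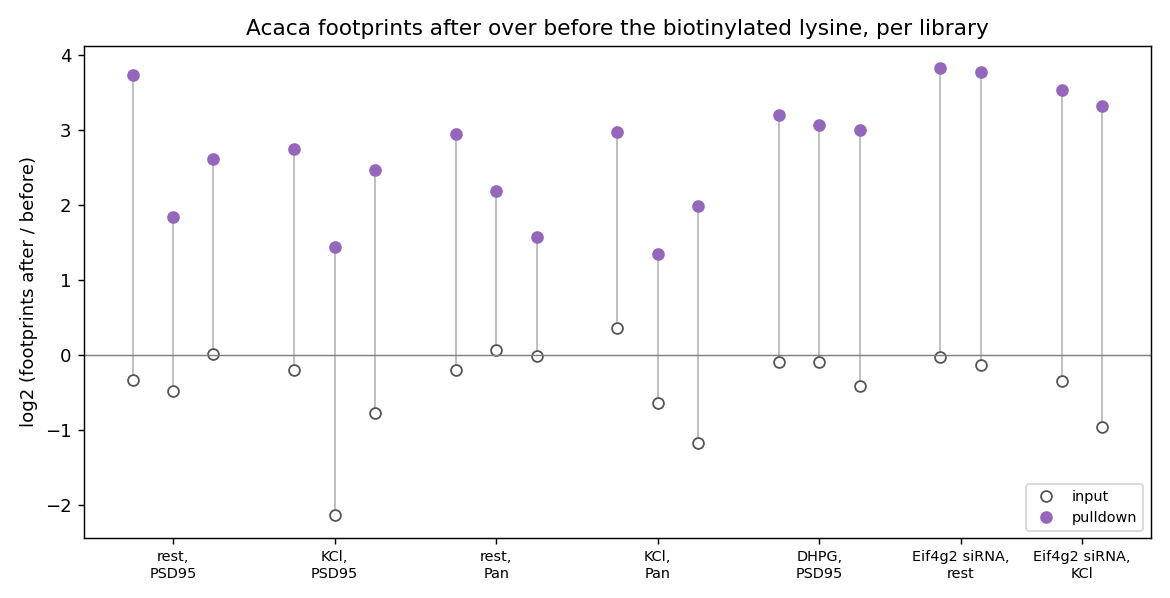
Log2 ratio of Acaca footprints after the lysine codon to those before it (y axis) in each library, with input (open) and pulldown (filled) of a pair joined by a line, grouped by condition (x axis). The inputs lie between -2.14 and 0.37 and the pulldowns between 1.35 and 3.83, so that no pulldown reaches down to an input.

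The deposited CDS segments follow the exons and gave a finer division. The segment with the lysine codon, codons 783 to 827, had a log2 ratio of 0.82 in the KCl experiment, 0.63 with DHPG and -1.03 with Eif4g2 siRNA. The next one, codons 828 to 876, which starts 43 codons after the lysine, had 1.96, 1.84 and 1.30. The one after that, codons 877 to 939, had 2.34, 4.06 and 5.17, and all later segments tested lay between 1.74 and 5.75. Segments ending by codon 166 lay between -2.82 and -0.44. Those between there and the segment of the lysine codon lay between -1.04 and 1.88 in the KCl experiment (median 0.59), between -1.67 and 1.71 with DHPG (median 1.16) and between -1.47 and 2.14 with Eif4g2 siRNA (median 0.76). In the KCl experiment codons 406 to 462 and 463 to 516 were at 1.85 and 1.88, close to the 1.96 of codons 828 to 876.

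Relative to the rest of the gene, 10 of 48 Acaca segments were called higher and 8 lower in the KCl experiment, beside 12.9% and 11.1% of all 85474 segments tested. With DHPG 16 were higher and 16 lower, beside 23.4% and 25.1%, and with Eif4g2 siRNA 7 of 47 were higher and 11 lower, beside 11.6% and 14.2%. All of the higher calls, 10, 16 and 7, lay after the segment of the lysine codon. The lower calls lay in it or before it, with the exception of codons 828 to 876 with Eif4g2 siRNA. A ratio that rises along any CDS places higher calls late and lower calls early in such a test. Of all genes divided at the lysine codon, 41.7%, 71.4% and 49.7% were called higher after it in the 3 experiments. The share of their higher segment calls that lay after it was not counted. In the KCl experiment the number called higher was 5 without replicate 2 or 3 and 16 with the replicate block, and the number called lower was 4 without replicate 1 or 3. With Eif4g2 siRNA 6 were called lower without resting pair 1.

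Pcx, Pcca and Pccb also had fewer pulldown footprints near the start of the CDS in the KCl experiment. In Pcx, codons 2 to 108 were lower in the pulldown (-1.44 and -1.13) and the segments from codon 164 on lay between 0.61 and 1.97. The last Pcx segment, which contains the lysine codon, was at 1.11. In Pcca the first 4 segments were all called lower, the first at -1.13, and the segment of the lysine codon was at 1.95, close to the 1.90 of codons 544 to 578. In Pccb, whose product has no biotin, the first 3 segments were called lower, from -1.37 to -0.87, and 4 later ones higher, the highest at 1.79. In Pcca 2 segments were called lower without replicate 1 or 3, and in Pccb 2 were called higher without replicate 2, 1 without replicate 3 and 7 with the replicate block. At codon 785, Pcx ranked 1212 of the 1973 genes, with a difference of 0.60.

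Footprints outside the CDS were not used to choose or rank these genes. In the 5′ untranslated region, Acaca had 406 input and 132 pulldown counts, a log2 ratio of -1.55 relative to the CDS total, against -1.28 summed over all genes. Mccc2 had 1156 and 467 (-1.24), and Pcx 230 and 131 (-0.75). In the 3′ untranslated region, Acaca had 43 and 105 counts. The 3′ untranslated region of the longest Mccc1 transcript had 777 and 2064 counts (1.48, against 0.89 for all genes). Added to the CDS counts of that transcript, 841 and 762, these come close to the CDS counts of the full-length transcript, 1613 and 2806. Whether they lie in coding exons of the full-length transcript was not tested by position.

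Genes that make or use the same metabolites were called in both directions in the KCl experiment, where 26.2% of all genes were higher and 28.9% lower with a median of -0.03. Of the genes for biotin handling, Slc5a6, the sodium-dependent multivitamin transporter that takes up biotin, was higher at 1.12 ± 0.17 (7.65e-06), and Hlcs (0.23) and Btd, the biotinidase that frees biotin for reuse (-0.08), did not pass. Around malonyl-CoA, 7 of 15 genes were higher and 2 lower with a median of 0.23, among them the desaturases Scd2 (0.97) and Scd1 (0.94) and the fatty acid synthase Fasn (0.70), while Mid1ip1, which promotes polymerization of acetyl-CoA carboxylase, was lower (-0.96). Of the leucine breakdown genes, which feed Mccc1 and Mccc2, 5 of 11 were higher and 1 lower with a median of 0.22. Auh, the next enzyme of that route, was lower (-1.14), and Bcat2 (1.02), Ppm1k (0.65) and Dld (0.42) were higher.

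From propionyl-CoA to succinyl-CoA, downstream of Pcca and Pccb, 1 of 8 genes was higher and 3 lower with a median of -0.21. Mut, the methylmalonyl-CoA mutase, was higher (0.43), and Mcee (-0.74), Mmab (-0.60) and Suclg1 (-0.22) were lower. In the other experiments the calls were even in direction: 3 were higher and 3 lower with DHPG (median 0.01), 1 and 1 with Eif4g2 siRNA at rest (median 0.22) and 2 and 2 with it after KCl (median -0.12). Around pyruvate, 4 of 11 genes tested were higher and 4 lower with a median of 0.02, including the pyruvate carrier subunits Mpc2 (-0.96) and Mpc1 (-0.63) and, in the other direction, Pdhb (0.61) and citrate synthase Cs (0.54). Enzymes whose swinging arm is lipoic acid and not biotin served as a like-built group: 0 of 5 were higher and 2 were lower, Dlat (-0.42) and Gcsh (-0.86), with a median of -0.08. Of these 5, 2 were higher and 3 lower with DHPG (median -0.25), beside 40.5% and 39.3% of all genes. With Eif4g2 siRNA 1 was higher and 1 lower at rest (median 0.10), beside 22.1% and 23.4%, and 1 higher and 2 lower after KCl (median -0.06), beside 24.0% and 24.8%. In the same 3 comparisons, with DHPG and with Eif4g2 siRNA at rest and after KCl, 10 of 14, 7 of 15 and 7 of 15 genes around malonyl-CoA were higher and 2, 2 and 1 lower. Of the 11 leucine breakdown genes 9, 2 and 6 were higher and 1, 0 and 1 lower, and of the 11 around pyruvate 6, 3 and 5 were higher and 3, 3 and 4 lower. Of the 3 for biotin handling 2, 1 and 0 were higher and 0 lower.

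Over the 38 libraries, which share the pulldown and input division, the Acaca level varied most like Dnajc13 (Pearson r = 0.949 of log2 CPM), Cul7 (0.948) and Mycbp2 (0.947) among 7674 genes. Pcca was most like Polr2a (0.947), Pds5b (0.943) and Exoc4 (0.938), and Pcx most like Hadha (0.925). Pccb was most like Prmt5 (0.928), Mars (0.923) and Las1l (0.920), Mccc2 like Dnpep (0.874), Galnt16 (0.862) and Snrnp200 (0.856), and Acacb like Nek1 (0.847), Smc5 (0.843) and Acadsb (0.834). Mccc1 had no close match, with Dhrs1 (0.587), Khdc4 (0.580) and Jun (0.553) at the top. This used its short transcript, with only 15 to 122 counts per input and 6 to 112 per pulldown, and the full-length one was not tried. No member was among the 3 closest genes of another member. Mccc1 and Acacb could not be, as matches needed a mean log2 CPM of at least 4.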

How the data were processed

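Ribosome footprints from inputs and streptavidin pulldowns were counted by the authors with plastid after alignment to mm10, and the deposited values are raw counts per CDS segment or untranslated region of each annotated transcript, with no normalization. Per the methods, part of each lysate's monosome fraction was kept as input and the rest pulled down, so equal numbers pair libraries by design. Deviations from group means correlated at 0.314 to 0.686 within KCl pairs, at -0.188 to 0.0466 within DHPG pairs and at 0.00242 to 0.0240 within KD pairs. Samples were grouped by the labels' lentivirus, fraction and treatment. Some descriptions place PSD95-TurboID libraries in the cytosol, and the lentivirus field was used.

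Counts were summed over the CDS segments of each gene's longest transcript. Of 67238 coding transcripts 99.3% had a symbol. Comparisons used edgeR 4.0.16 (quasi-likelihood F-test, robust, TMM, filterByExpr; Benjamini-Hochberg at 0.05), 1 fit for the KCl experiment's 24 libraries, 1 for DHPG's 6 and 1 for KD's 8. Segments, and genes divided at 1 codon, were tested with diffSpliceDGE, each segment against the rest of its gene. CPM used TMM library sizes. Log2 pair ratios of the longest transcripts used a prior count of 2, and pair ratios given as folds and those of the full-length Mccc1 transcript used none. CPM per kb divides by CDS length. Intervals at 95% use the residual degrees of freedom of each fit. DESeq2 1.42.0 served as an alternative. The genes named are the 7 carboxylase genes, Dlg4 and Eif4g2, the 5 genes with the highest median ratio, the 3 most correlated genes of each member with a mean log2 CPM of at least 4, and up to 4 called genes of each pathway list by p. For Pcx only the closest gene is given, as another item is not reported here. The members and lists were chosen with earlier results of these data known. Statistical steps were tested on simulated data with known changes. Per the methods, molecular identifiers were trimmed from the reads, and whether duplicates were collapsed by them is not given in the sources used here. Low counts, as in Acacb, limit precision.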

Additional observations from a re-analysis of the deposited data

How the results depend on the processing

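Alternatives were size factors of DESeq2 (RLE), no filter on low counts, edgeR's likelihood ratio test, DESeq2, the replicate block, the CDS length trend removed, the highest-count transcript, the mean of both inputs and each replicate left out. In the gene comparisons the replicate block took each pulldown and input pair as a block, and for KCl in inputs the replicate number.

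The number of genes called at rest with PSD95-TurboID was 3258, and 5445 with the replicate block, 1835 with the length trend removed and 0 to 2889 without 1 replicate (0 without replicate 3, where 2813 had an unadjusted p under 0.05). After KCl it was 1637, and 2509 with DESeq2, 4494 with the block, 698 with the length trend removed and 3 to 1660 without 1 replicate. With Pan-TurboID at rest it was 1240, and 1896 by the likelihood ratio test, 2103 with DESeq2, 4275 with the block, 371 with the length trend removed and 0 to 1221 without 1 replicate (0 without replicate 2 or 3, with 2458 and 1931 unadjusted). With Pan-TurboID after KCl it was 1138, and 1824, 2184, 4152 and 328 under the same 4 settings and 0 to 591 without 1 replicate (0 without replicate 2 or 3, with 2794 and 2166 unadjusted). For KD at rest it was 5560, and 3175 to 3303 without 1 pair. PSD95-TurboID minus Pan-TurboID called 1 gene, and 0 with no filter, 2 with DESeq2, 2 with the block, 0 with the length trend removed and 0 to 1 without 1 replicate. KCl in inputs called 1996 genes, and 515 to 2098 without 1 replicate (515 without replicate 3 and 887 without replicate 2). Segment calls were 20514 in the KCl experiment and 6777 to 16980 without 1 replicate (6777 without replicate 3), and 16867 in the KD experiment and 7956 to 14625 without 1 pair (8156 and 7956 without resting pair 1 and 2). The Acaca difference across its site in the KCl experiment was 2.89, and 2.10 with the side before it from codon 200. The Acacb difference per pair was 1.38, and 1.21 with a pseudocount of 2; with 7 input counts before the site the added constant sets these values, and no call is drawn from them. The cause was not tested.

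Signs turned for Mccc1 at rest with PSD95-TurboID (-0.022 to 0.20 without 1 replicate) and Pan-TurboID (-0.023 to 0.41), after KCl with PSD95-TurboID (0.022 with the length trend removed, 0.67 from the highest-count transcript) and Pan-TurboID (0.60 from that transcript), over the KCl experiment (0.25 and 0.80 under these 2 settings), and in KD neurons at rest (-0.29 to 0.51 without 1 pair) and after KCl (0.82 from the highest-count transcript). Mccc2 after KCl with PSD95-TurboID, at -0.0038, turned to 0.0029 with RLE, 0.082 against the mean of both inputs and -0.18 to 0.22 without 1 replicate. Between the ligases without 1 replicate Pccb ran from -0.020 to 0.21, Acacb from -1.28 to 0.47 and Mccc1 from -0.34 to 0.18, and Mccc1 turned to 0.00087 by the likelihood ratio test, 0.0038 with DESeq2, 0.0080 with the length trend removed and 0.18 from the highest-count transcript. For KCl in inputs, Pcx turned to 0.12 and Acaca to 0.13 with the length trend removed. For KCl on enrichment, Pcx ran from -0.013 to 0.16 and Acaca from -0.60 to 0.029 without 1 replicate. None of these results passed as reported, and Mccc1 passed from its highest-count transcript at rest with PSD95-TurboID (1.12), over the KCl experiment and in KD neurons at rest (0.80) and after KCl.

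In the KD fit a whole replicate number could not be left out, for want of residual degrees of freedom, so 1 pair was left out at a time and the lone sample was assumed to vary like the others. Depth limits Acacb most.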
